A study of Homo sapiens with 12 samples.

Results

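The genes described here are 10 Wnt inhibitors, receptors and target genes measured by RNA-seq in KELLY cells, an established human neuroblastoma line with amplified MYCN. They were taken by symbol from the 55771 rows of the normalized count table, and all 10 had a row. They are the secreted inhibitors DKK1 and DKK3, the transcript PRKG1-AS1 that overlaps the start of DKK1, the receptors LGR5 and LGR4, and LEF1, AXIN2, NKD1, ZNRF3 and RNF43. Cells were transfected for 48 h with 50 nM of a morpholino, an uncharged antisense oligonucleotide, complexed with a DNA leash and lipid. The 3 groups of 4 libraries received the BPS2 oligonucleotide, the BPS1 oligonucleotide or a control oligonucleotide. All groups shared the cell line, 24 h of plating in medium with 10% serum, the lipid delivery and transfection medium with 4% serum. The series text names as its subject the changes that come with more of the long NEAT1 transcript and of paraspeckles, the nuclear bodies built on it. What each oligonucleotide targets is not stated in the labels. No label tells if replicates are different cultures, and a p-value here therefore refers to variation among libraries that could be purely technical.

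Wnt ligands bind a Frizzled receptor together with LRP5 or LRP6, which stops a complex built on AXIN and APC from destroying beta-catenin, and beta-catenin then switches on genes through TCF and LEF factors. Many of the genes switched on are brakes or amplifiers of the pathway itself: DKK1 blocks LRP5 and LRP6 from outside, AXIN2 rebuilds the destruction complex, NKD1 binds Dishevelled, and ZNRF3 and RNF43 are ubiquitin ligases that remove Frizzled from the surface. R-spondins bound to LGR4 or LGR5 clear those ligases and so strengthen the signal. In neural crest, from which neuroblastoma derives, Wnt signalling takes part in lineage choice.

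Facts of the libraries were as follows. Dividing each library's total by its value of 1 read gave an estimated 29.1 to 31.8 M reads. NEAT1 checks the labels only in part, since its short and long forms share 1 row, and held 3912 to 4854 normalized counts in BPS2, 1414 to 2380 in BPS1 and 6494 to 7074 in control, so the summed forms lay lower in both treated groups. BPS1 replicate 4 and control replicate 1 stood apart: the SD over genes of their deviation from each gene's median was 0.594 and 0.471 on the log2 scale, against 0.377 to 0.425 in the other 10. Results on the members are therefore also given without these 2 libraries where that changes a call. The cells carried neuroblastoma markers, since all 8 of the adrenergic state averaged at least 10 normalized counts. Their summed level was 142389 to 151433 in BPS2, 122995 to 150689 in BPS1 and 148387 to 167992 in control. The summed level of 6 mesenchymal neuroblastoma markers, all at a mean of at least 10 and none at 0, was 3117 to 3823 in BPS2, 3387 to 4562 in BPS1 and 2621 to 2991 in control, so both treated groups lay above the control libraries. That of 5 fibroblast markers, again all at a mean of at least 10, was 1221 to 1516 in BPS2, 1059 to 1375 in BPS1 and 957.7 to 1093 in control. Of 4 Schwann cell markers 2, and of 4 epithelial markers 1, reached a mean of 10, and their summed levels in treated libraries overlapped control. The fibroblast range of BPS1 overlapped control, and that of BPS2 lay above it. In these 2 lists PDGFRA averaged 71.5 normalized counts in BPS2, 55.5 in BPS1 and 88.4 in control. WWTR1 averaged 20.8, 16.8 and 23.5 in the same order. The other markers of both lists averaged higher in both treated groups than in control. The part of such markers' cell states in the rises of DKK1, LGR5 and LEF1 given below was not tested. In such bulk samples fewer cells expressing a gene and less of its RNA per cell cannot be told apart.

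DKK1 and PRKG1-AS1 start close to each other on opposite strands. On GRCh38 in GENCODE release 29, DKK1 (ENSG00000107984, protein coding) lies on chromosome 10 from 52314296 to 52318042 on the plus strand. PRKG1-AS1 (ENSG00000236671, an antisense transcript) lies from 52230742 to 52314507 on the minus strand, so the 2 gene models share 212 exonic bases. At its other end PRKG1-AS1 also shares 169 exonic bases with PRKG1, on the opposite strand. In RefSeq the start of PRKG1-AS1 lies 153 bases before that of DKK1, with no overlap. The stretch around both starts is shown because DKK1 and PRKG1-AS1, the members with the highest fold changes in BPS1, begin in it. It is chr10:52314031-52314330 of GRCh38.p14, plus strand, from 250 bases before to 50 after the RefSeq start of DKK1, with the 2 matches to CTTTGA, the core of the TCF/LEF site, in capitals (the first match is on the minus strand and reads TCAAAG here).
DKK1 promoter: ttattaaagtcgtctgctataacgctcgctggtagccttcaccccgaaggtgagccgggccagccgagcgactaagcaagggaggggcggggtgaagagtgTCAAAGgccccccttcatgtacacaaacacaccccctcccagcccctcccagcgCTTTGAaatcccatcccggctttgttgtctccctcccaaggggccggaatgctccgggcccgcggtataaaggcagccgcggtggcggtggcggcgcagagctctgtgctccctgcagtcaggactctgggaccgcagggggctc
The matches begin 149 and 95 bases before the start of DKK1. Counted from the start of PRKG1-AS1 on its own strand they begin 9 and 63 bases before it, since 252 of the 300 bases of its window are the same DNA. Of 35116 RefSeq windows of this length, 12.9% hold CTTTGA on either strand and 1.29% hold it at least 2 times. Windows were in the table used for 5 of the 10 members, and those of LGR4, LEF1 and RNF43 hold no CTTTGA. The LEF1 window, 108166252 to 108166551, lies inside the gene model, so the DNA at that model's start, 108168956, was not examined. Likewise 1 of the 2 windows of RNF43, 58402672 to 58402971, lies inside its gene model. The AP-1 site TGANTCA, present in 7.71% of windows, was absent from the windows of DKK1, PRKG1-AS1, LGR4 and LEF1. It was in 1 of the 2 windows of RNF43, namely that inside the gene model. A match describes the letters and is not evidence of binding.

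**Figure D1:**
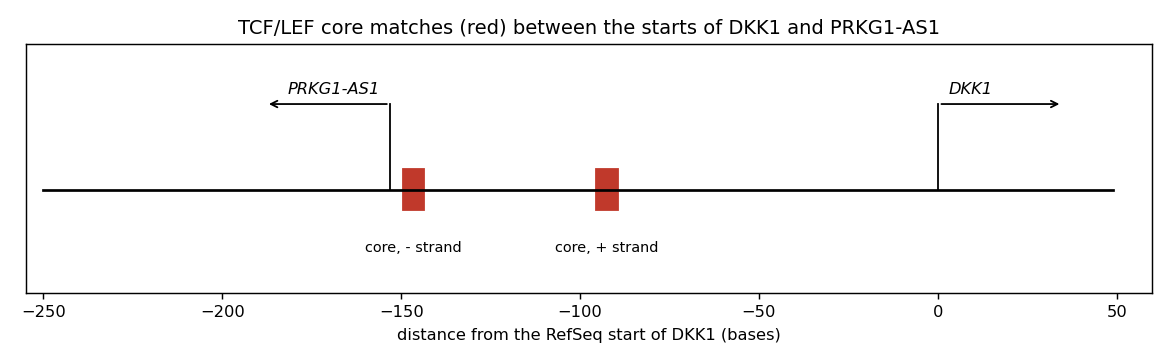
Map of the window around the RefSeq start of DKK1. The horizontal axis is the distance from that start in bases, the arrows give the starts and directions of both transcripts and the red boxes the CTTTGA matches. Both matches, at 149 and 95 bases before DKK1, lie between the starts, which are 153 bases apart.

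DKK1 rose 2.98-fold in BPS2 and 3.54-fold in BPS1, and no treated library came near a control library. Its normalized counts were 2459, 2712, 3024 and 2577 in BPS2, 2736, 3251, 3093 and 3757 in BPS1, and 999, 1010, 867 and 752 in control. The lowest treated library thus lay far above the highest control library, while BPS2 and BPS1 overlapped. On the log2(normalized count + 1) scale the fold change was 1.57 ± 0.12 in BPS2 (SE; limma adjusted p = 1.06e-04) and 1.82 ± 0.12 in BPS1 (limma adjusted p = 1.82e-06). BPS2 lay 0.25 below BPS1 (log2 difference -0.25 ± 0.12, 95% interval -0.50 to 0.00, limma adjusted p = 0.298), which did not pass, where passing means an adjusted p under 0.05 over the 20454 genes above a filter on low values. Both calls against control held under all alternatives tried, with a highest limma adjusted p of 0.002226 in BPS2 and 1.47e-04 in BPS1.

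PRKG1-AS1 rose with both oligonucleotides too, but it was lower in BPS2 than in BPS1. Its normalized counts were 48.2, 37.5, 55.6 and 43.9 in BPS2, 71.0, 90.4, 93.2 and 97.2 in BPS1, and 22.7, 27.1, 23.2 and 22.2 in control. The 3 groups did not overlap at any boundary. Its log2 fold change was 0.92 ± 0.16 in BPS2 (limma adjusted p = 0.0143) and 1.84 ± 0.16 in BPS1 (limma adjusted p = 2.37e-05). BPS2 was lower than BPS1 by a log2 difference of -0.92 ± 0.16 (limma adjusted p = 0.00647), the only one of the 9 members tested to pass between the oligonucleotides. Without BPS2 replicate 3 the call in BPS2 was lost (0.83, limma adjusted p = 0.05897), while the difference from BPS1 held under every alternative tried (highest limma adjusted p = 0.0309).

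Set against DKK1 in the same library, PRKG1-AS1 was less abundant in BPS2. Its count was 1.96%, 1.38%, 1.84% and 1.70% of that of DKK1 in the BPS2 libraries, 2.59%, 2.78%, 3.01% and 2.59% in BPS1 and 2.27%, 2.68%, 2.67% and 2.95% in control. The mean share was 1.72% ± 0.248 in BPS2, 2.74% ± 0.201 in BPS1 and 2.65% ± 0.281 in control (SD, n = 4 each). BPS2 did not overlap either of the others, whereas BPS1 and control overlapped. This share was formed after the values were seen and was not tested. The kit marked strand, but whether the counting used it is not given in the sources used here, so reads from the overlapping bases may not be assigned cleanly between the transcripts.

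**Figure D2:**
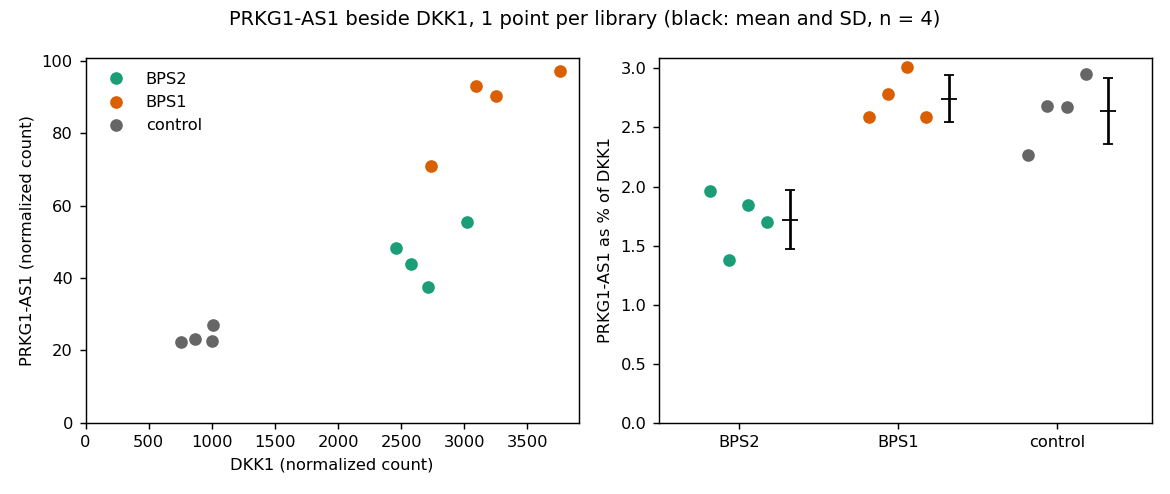
Left, normalized count of PRKG1-AS1 (vertical) against that of DKK1 (horizontal), 1 point per library. Right, PRKG1-AS1 as a percentage of DKK1 by group, with mean and SD (n = 4); BPS2 averages 1.72%, BPS1 2.74% and control 2.65%.

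DKK3, a divergent member of the Dickkopf family that does not act on LRP6 as DKK1 does, went the other way in BPS1. The gene (ENSG00000050165) lies on chromosome 11 from 11963106 to 12009769 on the minus strand. Its normalized counts were 373, 374, 355 and 282 in BPS2, 288, 290, 275 and 346 in BPS1, and 385, 452, 430 and 375 in control. All treated libraries lay below all control libraries, in BPS2 by a narrow gap. DKK3 fell in BPS1, with a log2 fold change of -0.45 ± 0.12 (limma adjusted p = 0.0287). In BPS2 the log2 fold change of -0.25 ± 0.12 did not pass (95% interval -0.50 to -0.00, limma adjusted p = 0.438), and BPS2 and BPS1 differed by 0.20 ± 0.12 (limma adjusted p = 0.412). The BPS1 call was weak: it was lost without BPS1 replicates 1, 2 or 3 or control replicates 2 or 3 (limma adjusted p of 0.06535, 0.07206, 0.08319, 0.0895 and 0.079), and held without BPS1 replicate 4 and control replicate 1 together (-0.56, limma adjusted p = 0.009775).

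Of the R-spondin receptors, LGR5, itself a Wnt target and a marker of several stem cell pools, rose 2.10-fold in BPS2 and 1.96-fold in BPS1. LGR5 (ENSG00000139292) lies on chromosome 12 from 71439770 to 71586310 on the plus strand. It held 921, 943, 924 and 948 normalized counts in BPS2, 789, 1031, 735 and 978 in BPS1, and 384, 393, 410 and 632 in control. The BPS2 libraries were close together, and control replicate 4 was well above the other control libraries though still below every treated one. This was a log2 fold change of 1.07 ± 0.15 in BPS2 (limma adjusted p = 0.00396) and 0.97 ± 0.15 in BPS1 (limma adjusted p = 0.00184). The difference between BPS2 and BPS1, 0.10 ± 0.15 (95% interval -0.24 to 0.43, limma adjusted p = 0.831), did not pass.

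LGR4 (ENSG00000205213, chromosome 11, 27365961 to 27472775, minus strand), the other R-spondin receptor, did not pass in any comparison, and its treated libraries were widely spread. It held 726, 486, 475 and 523 normalized counts in BPS2, 903, 582, 484 and 319 in BPS1 and 622, 572, 593 and 602 in control. The control libraries lay inside the range of both treated groups. The lowest value was that of BPS1 replicate 4, 1 of the libraries that stood apart. Measured as a log2 fold change it was -0.13 in BPS2 (95% interval -0.66 to 0.39, limma adjusted p = 0.891) and -0.16 in BPS1 (95% interval -0.68 to 0.36, limma adjusted p = 0.755), and the BPS1 value turned to 0.09 without BPS1 replicate 4.

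LEF1, a TCF/LEF factor that is also a Wnt target, rose in BPS1. LEF1 (ENSG00000138795) lies on chromosome 4 from 108047545 to 108168956 on the minus strand. Its normalized counts were 235, 229, 199 and 225 in BPS2, 225, 261, 272 and 263 in BPS1, and 182, 161, 179 and 137 in control. Every treated library was above every control library, and BPS2 and BPS1 overlapped. LEF1 differed from control by a log2 fold change of 0.63 ± 0.11 in BPS1 (limma adjusted p = 0.00427). In BPS2 it was 0.43 ± 0.11 (95% interval 0.19 to 0.68), which did not pass at a limma adjusted p of 0.107 but did without control replicate 1 and BPS1 replicate 4 together (0.49, limma adjusted p = 0.02598). BPS2 and BPS1 differed by -0.20 ± 0.11 (limma adjusted p = 0.417). The antisense transcript LEF1-AS1 shares 279 exonic bases with LEF1 and averaged 29.5 normalized counts in BPS2, 23.4 in BPS1 and 15.1 in control. It did not pass against control (limma adjusted p = 0.3 in BPS2 and 0.303 in BPS1). Its BPS2 values were 20.1, 49.1, 29.2 and 19.8, and BPS2 and BPS1 differed by 0.27 ± 0.32 (limma adjusted p = 0.752), so no order between them is shown.

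The feedback genes AXIN2 and NKD1 and the ligase gene ZNRF3 did not pass in any of the 3 comparisons. AXIN2 (ENSG00000168646, chromosome 17, 65528563 to 65561647, minus strand), a widely used readout of beta-catenin activity, held 207, 262, 184 and 149 normalized counts in BPS2, 143, 181, 239 and 187 in BPS1, and 199, 201, 208 and 171 in control. All control libraries lay within the range of either treated group. AXIN2 had a log2 fold change of 0.01 in BPS2 (95% interval -0.37 to 0.40, limma adjusted p = 0.989) and -0.08 in BPS1 (95% interval -0.46 to 0.31, limma adjusted p = 0.852). The treated libraries were more widely spread than the control libraries. A gene model on the same strand, AC004805.1, shares 1316 exonic bases with AXIN2 and was listed at 0.

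NKD1 (ENSG00000140807, chromosome 16, 50548330 to 50649249, plus strand) held 497, 592, 399 and 427 normalized counts in BPS2, 509, 535, 650 and 501 in BPS1, and 323, 522, 573 and 544 in control. Control replicate 1 was the lowest of all 12 libraries, and the groups overlapped. NKD1 had a log2 fold change of -0.02 in BPS2 (95% interval -0.40 to 0.37, limma adjusted p = 0.985) and 0.19 in BPS1 (95% interval -0.20 to 0.57, limma adjusted p = 0.592), and the BPS1 value was -0.001 without control replicate 1.

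ZNRF3 (ENSG00000183579, chromosome 22, 28883592 to 29057487, plus strand) had the narrowest intervals of the members. It held 944, 883, 867 and 897 normalized counts in BPS2, 966, 1044, 945 and 729 in BPS1, and 815, 951, 995 and 972 in control. The groups overlapped, and BPS1 replicate 4 was the lowest library. The log2 fold change was -0.05 in BPS2 (95% interval -0.28 to 0.18, limma adjusted p = 0.909) and -0.03 in BPS1 (95% interval -0.26 to 0.21, limma adjusted p = 0.916).

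RNF43 (ENSG00000108375, chromosome 17, 58352500 to 58417595, minus strand) was the 1 member below the filter on low values. It held 2.78, 7.49, 2.35 and 4.51 normalized counts in BPS2, 8.72, 4.29, 5.45 and 6.13 in BPS1, and 3.53, 5.02, 4.29 and 30.7 in control. Control replicate 4 held the highest value, and the other libraries overlapped. A two-sided exact permutation test with 70 arrangements gave p = 0.457 for BPS2 against control, 0.943 for BPS1 against control and 0.229 for BPS2 against BPS1 (smallest possible p 0.0286). Gene models on the same strand share exons with RNF43, SUPT4H1 by 143 bases and AC004687.2 by 4326. On the opposite strand TSPOAP1-AS1, at a mean of 14.1 normalized counts, shares 1521 exonic bases. Which gene these few reads belong to is therefore uncertain. At an estimated 2.26 to 9.21 reads in 11 libraries and 29.3 in control replicate 4, a difference was not detectable.

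**Figure D3:**
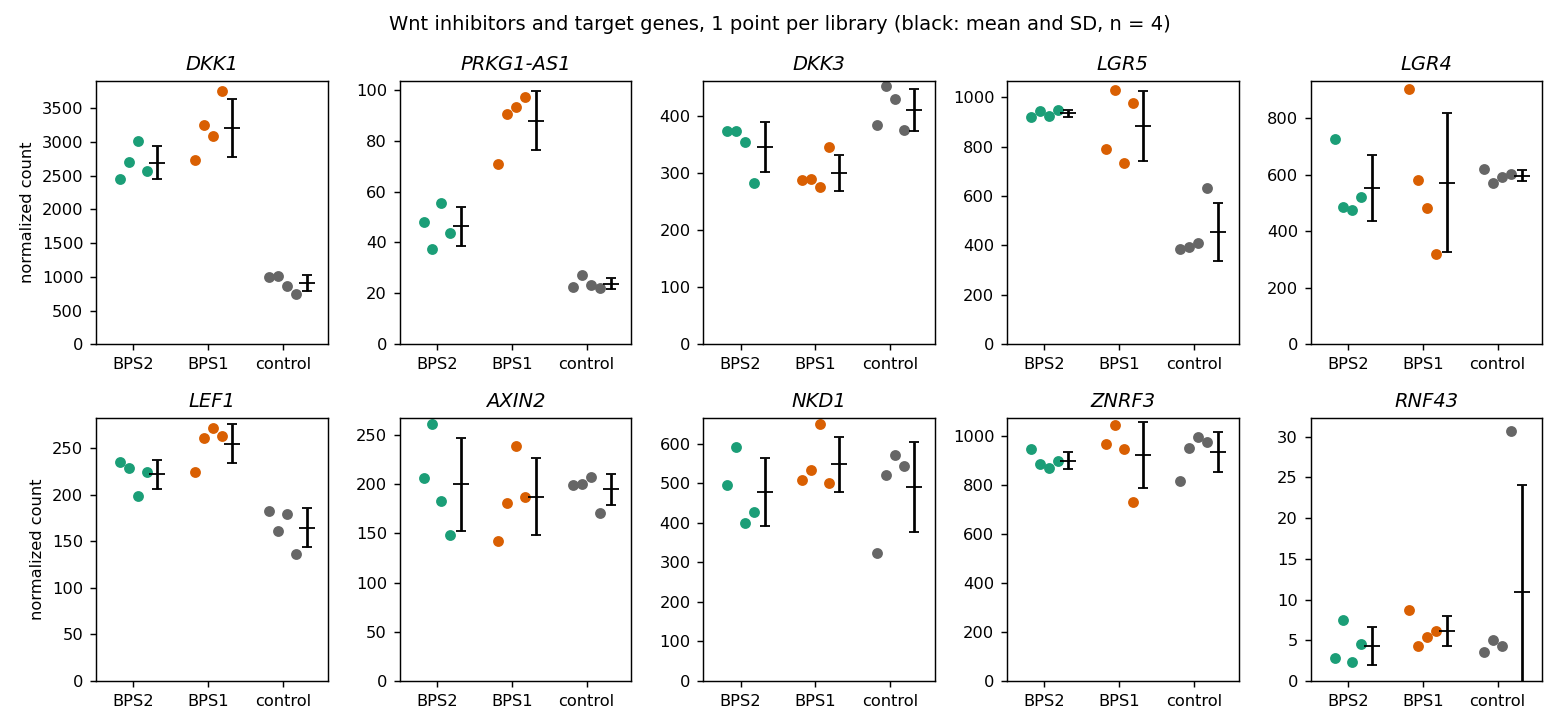
Normalized count of each of the 10 members by group, 1 point per library, with mean and SD in black (n = 4; each panel has its own vertical axis from 0, and the lower SD bar of RNF43 in control is clipped at 0). DKK1, PRKG1-AS1, LGR5 and LEF1 lie above control in all 8 treated libraries and DKK3 lies below, while AXIN2, NKD1, LGR4, ZNRF3 and RNF43 overlap. The share of all genes without such overlap was not counted.

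Counted over the 9 members tested, 3 rose and 0 fell in BPS2, namely DKK1, PRKG1-AS1 and LGR5, where limma called 0.821% of all 20454 genes tested higher and 0.386% lower. At an unadjusted limma p under 0.05, 4 members were higher and 1 was lower in BPS2, where this held for 6.08% of all genes in the higher and 5.34% in the lower direction. In BPS1, 4 rose (the same 3 and LEF1) and 1 fell (DKK3), where 4.29% of all genes were called higher and 4.32% lower. Between BPS2 and BPS1, 0 members were higher and 1 was lower (PRKG1-AS1), where 2.3% of all genes were called higher and 1.63% lower, and no further member had an unadjusted limma p under 0.05. The median log2 fold change of the 9 was 0.01 in BPS2 and 0.19 in BPS1, and that of all genes tested was 0.00 in both. DKK1 and PRKG1-AS1 share the region shown above and are not independent of each other, and both comparisons with control use the same 4 control libraries. The members were chosen with results of these data known, so the counts describe these genes and carry no test.

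**Figure D4:**
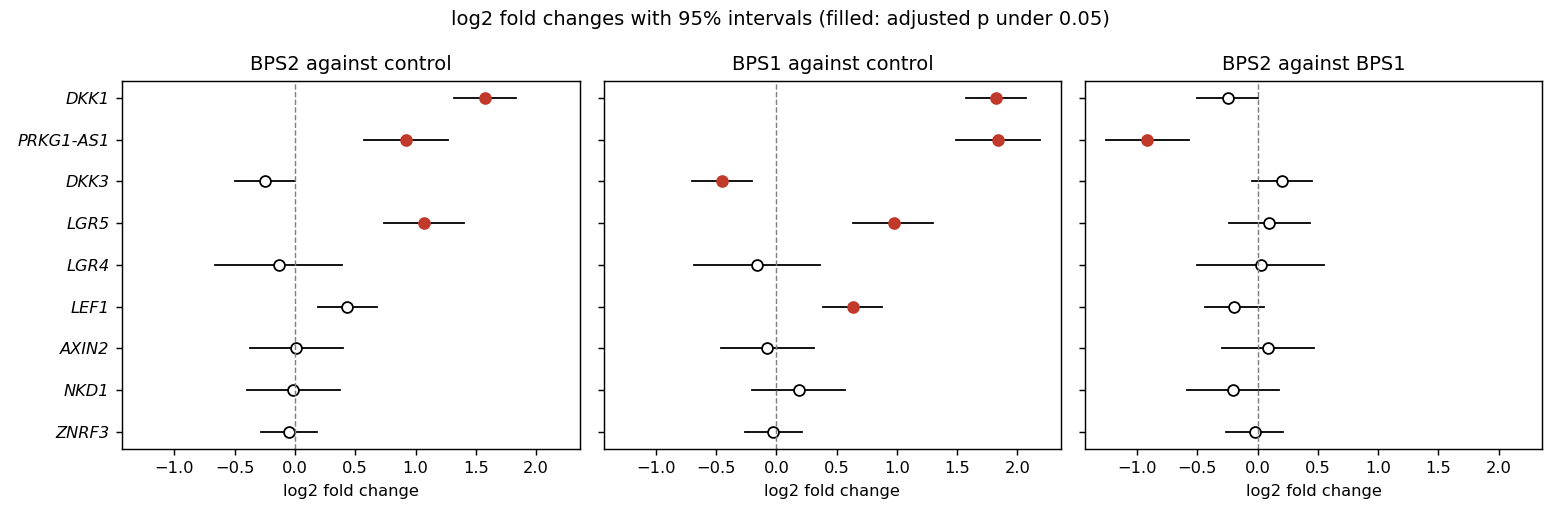
log2 fold changes (points) with 95% intervals (lines) of the 9 members tested, in the 3 comparisons. Filled points passed at an adjusted p under 0.05. DKK1, PRKG1-AS1 and LGR5 pass in both comparisons with control, DKK3 and LEF1 in BPS1, and PRKG1-AS1 between the oligonucleotides.

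Genes whose levels followed DKK1 most closely over the 12 libraries were SCG2, which encodes a secretogranin (Pearson's r = 0.989), the polyamine acetyltransferase gene SAT1 (0.987), the pseudokinase gene TRIB2 (0.980), the ETS factor gene ETV4 (0.977) and ISLR (0.973), among 13973 genes with a mean of at least 50 normalized counts. PRKG1-AS1 ranked 76 in that order (r = 0.910). All 5 and DKK1 share the same 12 libraries and the same split between treated and control. Among the 5 genes closest to AXIN2 were ANKDD1A (0.813), TEAD2 (0.799), ROR2 (0.779) and TRMT2B (0.770). ROR2, a receptor for WNT5A, held 355 ± 32.6 normalized counts in BPS2, 340 ± 21.1 in BPS1 and 363 ± 39.0 in control (SD, n = 4 each). These correlations are descriptions with no test.

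Of 103 other Wnt pathway genes listed, 76 passed the filter on low values. In BPS2, 2 of the 76 rose and 1 fell, against 0.821% and 0.386% of all genes tested, with a median log2 fold change of 0.02. In BPS1, 6 rose and 3 fell, against 4.29% and 4.32% of all genes, with a median of 0.05 (all genes 0.00 in both). Between BPS2 and BPS1, 0 were higher and 2 lower in limma, against 2.3% and 1.63% of all genes. At an unadjusted limma p under 0.05, 9 of the 76 were higher and 6 lower in BPS2, against 6.08% and 5.34% of all genes. In BPS1, 19 were higher and 14 lower, against 11.3% and 11.2% of all genes. Between the oligonucleotides, 7 were higher and 10 lower in BPS2 than in BPS1, where 9.13% and 8.01% of all genes were. Most of these counts are small and none carries a test of the list, and what follows describes single genes.

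Among the ligands, WNT7B rose in BPS1 and WNT5B fell. WNT7B held 56.7, 77.9, 43.8 and 56.3 normalized counts in BPS2, 86.4, 58.0, 101.35 and 118 in BPS1, and 51.5, 34.6, 34.5 and 34.3 in control. In BPS2, which overlapped control, the log2 fold change was 0.58 ± 0.24 (limma adjusted p = 0.359), and in BPS1 it was 1.19 ± 0.24 (limma adjusted p = 0.00794). WNT5B, a ligand mostly of beta-catenin-independent signalling, averaged 61.4 normalized counts in BPS2, 56.2 in BPS1 and 95.9 in control. Its log2 fold change in BPS1 was -0.81 ± 0.23 (limma adjusted p = 0.0430), and this call was lost without BPS1 replicates 2 or 3, BPS2 replicates 1, 2 or 4, or any 1 of the control libraries (limma adjusted p of up to 0.114, without BPS1 replicate 3). It was also lost with no filter (limma adjusted p = 0.07184), without control replicate 1 and BPS1 replicate 4 together (0.05538) and with only the 2 groups compared (0.08678). WNT3 had the highest count of the ligands, not scaled for length, at 252 ± 19.0 in BPS2, 290 ± 18.8 in BPS1 and 241 ± 13.0 in control (SD, n = 4 each), and did not pass.

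Of 8 Frizzled receptor genes tested, only FZD1 rose in BPS2, where 0.821% of all genes tested were called higher. FZD1, FZD2 and FZD7 rose in BPS1, where 4.29% of all genes were called higher and 4.32% lower, and 5 did not pass. FZD6, 1 of these 5, had a log2 fold change of -0.43 ± 0.13 in BPS1 (limma adjusted p = 0.0592), and is named after its value was seen. Of all 16 receptors and co-receptors tested, 3 rose and 0 fell in BPS1 in limma. At an unadjusted limma p under 0.05, 5 were higher and 3 lower, where 11.3% and 11.2% of all genes were. FZD1 held 47.5, 47.2, 35.3 and 38.8 normalized counts in BPS2, 49.2, 56.4, 45.7 and 59.0 in BPS1, and 24.4, 26.6, 23.5 and 21.0 in control. Both treated groups lay above control throughout, with log2 fold changes of 0.79 ± 0.16 in BPS2 (limma adjusted p = 0.0309) and 1.11 ± 0.16 in BPS1 (limma adjusted p = 0.00103). The BPS2 call was lost without BPS2 replicates 1, 2 or 4 or any 1 of the control libraries (limma adjusted p of up to 0.106, without BPS2 replicate 2), with no filter (0.0907) and with only the 2 groups compared (0.05742). FZD2 rose by 0.71 ± 0.14 in BPS1 (limma adjusted p = 0.00737) and FZD7 by 0.54 ± 0.12 (limma adjusted p = 0.0131), and neither passed in BPS2 (0.24 and 0.32). PTK7, a pseudokinase co-receptor of the pathway, had the highest mean count of the receptor genes, not scaled for length, at 4144 ± 293 in BPS2, 3379 ± 418 in BPS1 and 4123 ± 370 in control (SD, n = 4 each). It did not pass, with log2 fold changes of 0.01 in BPS2 (limma adjusted p = 0.985) and -0.29 in BPS1 (limma adjusted p = 0.0815). LRP6, the co-receptor that DKK1 binds, held 3866 ± 312 in BPS2, 3954 ± 1330 in BPS1 and 3033 ± 822 in control (SD, n = 4 each), and did not pass; its lowest libraries were control replicate 1 (1852) and BPS1 replicate 4 (1978).

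APCDD1, a membrane glycoprotein that inhibits Wnt signalling and is also reported as its target, rose in BPS1 and not in BPS2. It held 165, 194, 160 and 153 normalized counts in BPS2, 295, 254, 296 and 272 in BPS1, and 139, 180, 129 and 188 in control. The BPS1 libraries lay above all others, and BPS2 overlapped control. In BPS2 the log2 fold change was 0.10 ± 0.14 (limma adjusted p = 0.848), in BPS1 it was 0.83 ± 0.14 (limma adjusted p = 0.00223), and BPS2 lay below BPS1 by a tested difference of -0.73 ± 0.14 (limma adjusted p = 0.00843). TCF7, the TCF/LEF factor TCF1, was likewise highest in BPS1, with 640, 654, 620 and 549 normalized counts in BPS2, 875, 796, 850 and 862 in BPS1, and 671, 494, 554 and 517 in control. In BPS2, which overlapped control, the log2 fold change of TCF7 was 0.15 ± 0.10 and did not pass (limma adjusted p = 0.644). It rose by 0.61 ± 0.10 in BPS1 (limma adjusted p = 0.00253), and BPS2 lay below BPS1 by -0.46 ± 0.10 (limma adjusted p = 0.0212). That difference was no longer called without BPS1 replicates 1 or 3 or BPS2 replicates 3 or 4 (limma adjusted p of 0.06057, 0.06194, 0.05879 and 0.07665). Together with PRKG1-AS1 these were the Wnt genes examined that passed between the oligonucleotides, and all 3 were lower in BPS2.

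CTNNBIP1, which keeps beta-catenin from binding TCF factors, fell in BPS1. It held 127, 199, 216 and 127 normalized counts in BPS2, 92.7, 80.6, 83.4 and 159 in BPS1, and 237, 231, 192 and 196 in control. BPS1 lay below control throughout and BPS2 overlapped it. The log2 fold change was -0.39 ± 0.23 in BPS2 (limma adjusted p = 0.571), against -1.09 ± 0.23 in BPS1 (limma adjusted p = 0.0111). CTNNB1, the beta-catenin gene, held 2113 ± 220 normalized counts in BPS2, 2222 ± 376 in BPS1 and 2061 ± 325 in control (SD, n = 4 each), with log2 fold changes of 0.04 in BPS2 (95% interval -0.25 to 0.34) and 0.11 in BPS1 (95% interval -0.19 to 0.40), and did not pass. Of the 18 cytoplasmic transducers tested, 0 passed in limma in either comparison with control; at an unadjusted p under 0.05, 1 was higher and 0 lower in BPS2, and 1 was higher and 2 lower in BPS1. Of all genes tested, limma called 0.821% higher and 0.386% lower in BPS2, and 4.29% and 4.32% in BPS1. At an unadjusted limma p under 0.05 the shares were 6.08% and 5.34% in BPS2, and 11.3% and 11.2% in BPS1. Such shares leave few calls to be found in a list of 18.

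Of 5 other reported targets tested, CCND1, the cyclin D1 gene, rose in BPS2 and EPHB3, an ephrin receptor gene, fell with both oligonucleotides. Of all genes tested, limma called 0.821% higher and 0.386% lower in BPS2, and 4.29% and 4.32% in BPS1. At an unadjusted limma p under 0.05, 2 of the 5 were higher and 1 lower in BPS2. In BPS1, 2 were higher and 2 lower. For all genes these shares were 6.08% and 5.34% in BPS2, and 11.3% and 11.2% in BPS1. CCND1 held 10913, 12077, 12435 and 11516 normalized counts in BPS2, 10568, 10150, 9686 and 8837 in BPS1, and 6245, 7746, 8174 and 9366 in control. Its log2 fold change was 0.59 ± 0.11 in BPS2 (limma adjusted p = 0.0159) and 0.33 ± 0.11 in BPS1 (limma adjusted p = 0.0758), where 1 BPS1 library lay below the highest control library. The BPS2 call was lost without BPS2 replicates 2, 3 or 4 or control replicate 2 (limma adjusted p of up to 0.0703). EPHB3 averaged 3210 ± 166 normalized counts in BPS2, 2903 ± 366 in BPS1 and 4406 ± 293 in control (SD, n = 4 each). It fell by 0.46 on the log2 scale in BPS2 (limma adjusted p = 0.0238) and by 0.61 in BPS1 (limma adjusted p = 9.93e-04), and the BPS2 call was lost without any single control library but replicate 3 and without BPS2 replicates 1, 3 or 4 (limma adjusted p of up to 0.0846).

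**Figure D5:**
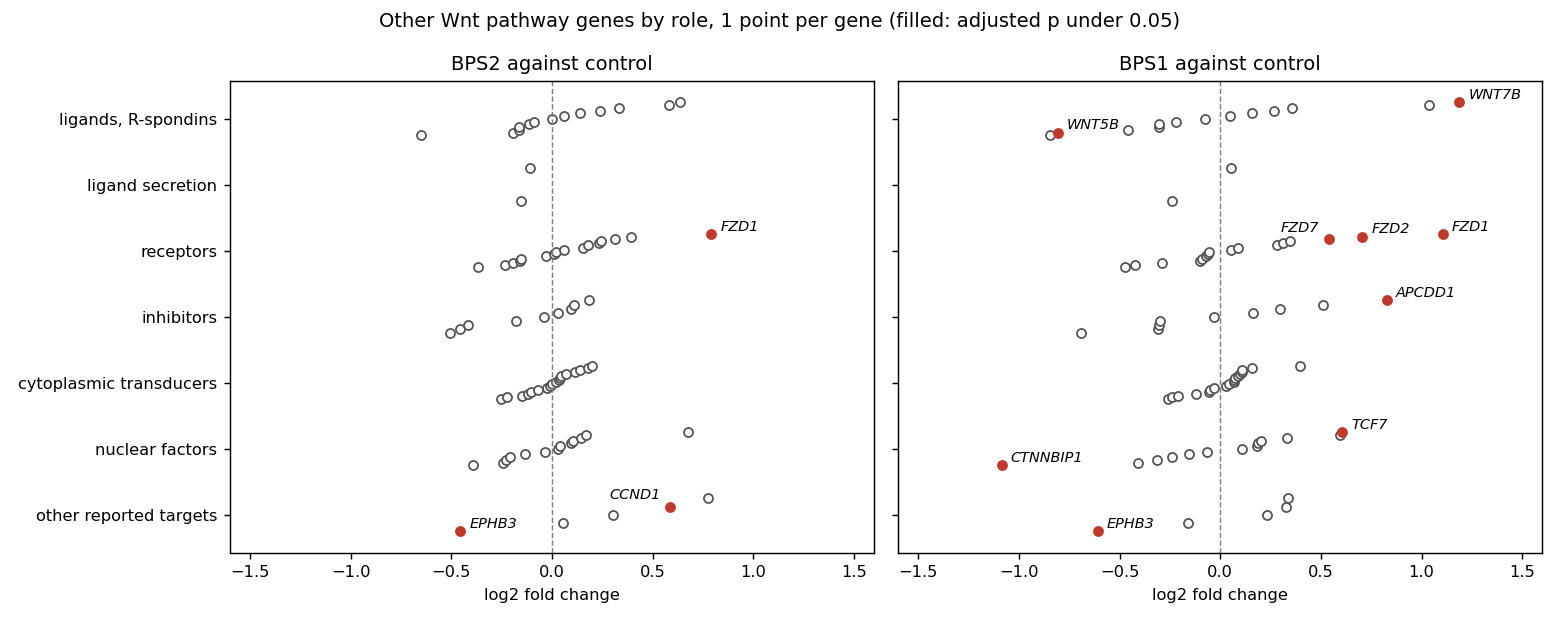
log2 fold changes of the 76 other Wnt pathway genes tested, by role, against control in BPS2 (left) and BPS1 (right), 1 point per gene. Filled, named points passed at an adjusted p under 0.05: 3 in BPS2 and 9 in BPS1.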

How the data were processed

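The 12 libraries (4 per group) of total RNA were depleted of ribosomal RNA, converted to stranded libraries and sequenced from 1 end for 100 bases, per the labels' protocols. Salmon 0.8.2, FastQC 0.11.7 and DESeq2 are listed in the submitters' processing notes, as is the build GRCh38. The values deposited by the authors are a signal, namely normalized counts, 1 for each gene in each library. Low values came in steps, the value of 1 read. Of those up to 20 reads, 67.8% to 71.3% lay within 0.001 of a whole multiple, so most but not all had no further scaling. This share does not cover values above 20 reads. The values of no member were whole reads throughout, so no count test was run and no counting interval is given. BPS2 columns were matched by sample title, because KPAS stands in the descriptions of those samples; BPS1 replicate 3 has its column under BSP1.

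Genes with at least 10 in at least 4 libraries (20454) were fitted as log2(normalized count + 1) with limma 3.58.1 in R 4.3.3 (mean-variance trend, group as the only term, all 12 libraries). Fold changes on this scale understate those of low genes. Passing means an adjusted p under 0.05 (two-sided, Benjamini-Hochberg, over all genes tested). RNF43, under the filter, had an exact permutation test. The fit was also run on simulated data, with independent normal noise and, unlike here, no library that stood apart. No result rests on that run. Each library was counted once. Between replicates of a group, the chi-square statistic divided by the number of genes used, 12541, was 7.55 to 93. Those genes lay near whole reads, with a tolerance that grew with the count, so abundant rescaled genes entered too. The statistic therefore cannot tell if replicates are different cultures. The members and gene lists were chosen with earlier results of these data known. Other pathway genes are named if they passed in any comparison, with CTNNB1, CCND1, and the ligand and receptor of highest mean count; LRP6 and FZD6 were added after their values were seen. Genes of like pattern are the 5 of highest Pearson's r with DKK1 and with AXIN2. 1 of those for AXIN2 is not reported here. Positions are from GENCODE release 29 and the promoter from RefSeq, both on GRCh38; the annotation release used by the authors is not given in the sources used here.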

Additional observations from a re-analysis of the deposited data

Results flagged for a closer look

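Control replicate 4 lay far from the other control libraries for 2 of the 10 members, by Dixon's criterion for the gap to the nearest library. LGR5 held 632 normalized counts there, against 384, 393 and 410 in the other control libraries, a gap of 0.897 of the group's range. Without it the log2 fold change of LGR5 was 1.24 in BPS2 and 1.14 in BPS1, and both calls held. RNF43 held 30.7 normalized counts there, against 3.53 to 5.02 in the other control libraries, a gap of 0.945 of the range. Without it the log2 difference of RNF43 in BPS1 was 0.41, against -0.24 with it (exact permutation p = 0.143 and 0.943). Over 30 groups of 4 looked at, chance picks out about 1 in 20. What set this library apart for these genes was not tested.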

How the results depend on the processing

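The counts, the members and the pathway genes that passed were recomputed with other pseudocounts (0.5, 5), other low-value filters, other scalings (none moved the all-gene median by 0.01 log2), robust variances, library weights, the replicate block, 2 groups at a time, without each library, and without control replicate 1 and BPS1 replicate 4 together; the alternatives for pathway genes were added after the data were seen. RNF43, under the filter, had 16 of them, FZD1 22, and genes that are no members were not recomputed where they did not pass. In all 23, 4 to 5 members passed in BPS1 and 2 to 4 in BPS2, and 1 passed between BPS2 and BPS1. Counts of other genes moved more. Library weights gave 7 other Wnt genes and 1296 of all genes in BPS2 (3 and 247 as reported), 21 and 3382 in BPS1 (9 and 1760), and 20 and 3626 between BPS2 and BPS1 (2 and 803). Without control replicate 1 and BPS1 replicate 4 these were 7 and 1923, 17 and 2772, and 21 and 3498. Without single libraries they spanned 0 to 3 and 113 to 535 in BPS2, 8 to 14 and 1103 to 2359 in BPS1, and 1 to 7 and 471 to 1756 between BPS2 and BPS1. With only the 2 groups compared, 907 of all genes passed in BPS1. The same replicate number did not pair libraries (correlations of their deviations -0.272 to 0.103, best with the own number in 2 of 24); with the replicate block, 0 other Wnt genes and 118 of all genes passed in BPS2, 1067 of all genes in BPS1 and 447 between BPS2 and BPS1, and PRKG1-AS1 in BPS2 (0.92, limma adjusted p = 0.06369) and DKK3 in BPS1 (-0.45, 0.07738) no longer passed. DKK3 in BPS1 was also lost with no filter (limma adjusted p = 0.05082) and with only the 2 groups compared (0.05347), and LEF1 in BPS2 passed with library weights (0.0244). Members that passed nowhere changed sign, at limma adjusted p of at least 0.481. LGR4 in BPS1 was 0.026 with weights, 0.106 without both libraries and -0.413 to 0.086 without single ones. ZNRF3 in BPS1 was 0.022, 0.018 and -0.092 to 0.081 in the same order. AXIN2 in BPS2 was -0.011 with weights. LGR4 between BPS2 and BPS1 was -0.003 with quantile scaling, -0.180 with weights, -0.220 without both libraries and -0.220 to 0.280 without single ones. Without single libraries, AXIN2 spanned -0.126 to 0.145 in BPS2, -0.199 to 0.047 in BPS1 and -0.051 to 0.220 between them, NKD1 -0.206 to 0.069 in BPS2 and -0.001 to 0.274 in BPS1, ZNRF3 -0.133 to 0.040 between BPS2 and BPS1, and RNF43 -0.525 to 0.411 in BPS1 (exact permutation). The causes were not tested.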
